A study of Mus musculus with 9 samples.

Results

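The 8 genes Arc, Homer1, Nptx2, Inhba, Vgf, Scg2, Ptgs2 and Cbln4 encode synaptic and secreted proteins that neurons make in response to activity. They were chosen by gene symbol from the 22180 genes that the array names through a probe set of 1 gene, and each of the 8 had 1 probe set. The 9 Affymetrix arrays, in 3 groups of 3, measured RNA from a frontal region, the anterior cingulate cortex, in mice of strain C57BL/6J. KT mice received ketamine, which blocks glutamate receptors of the NMDA type, by intraperitoneal injection of 3 mg/kg at ZT5 (zeitgeber time, in hours after lights on). SD mice were deprived of sleep between ZT0 and ZT12 in a circular cage with a slowly turning bar, with no injection named in their labels. Saline mice received saline by the same route at ZT5. All mice were killed at ZT13, which is 8 h after an injection and 1 h after the end of sleep deprivation. In any difference between SD and an injected group, wakefulness, injection and cage cannot be told apart. The sources used here give no age or sex. The labels call the arrays of a group biological replicates.

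When a cortical neuron fires, calcium entry through NMDA receptors and calcium channels activates kinases, which act on transcription factors such as CREB already bound to DNA. A first wave of genes, Arc and Homer1 among them, follows within minutes. A later wave includes secreted factors that modify synapses and blood vessels. Several genes of this kind are known to be higher in rodent cortex after waking than after sleep. They can be grouped by the place of their products: Arc and Homer1 act inside the postsynaptic spine, Nptx2, Cbln4 and activin (from Inhba) act outside the cell, Vgf and Scg2 are cargo of dense-core vesicles, and Ptgs2 makes prostanoids.

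All 8 genes had a lower mean in KT than in SD cortex, as did 53.0% of all genes. Their differences ran from -0.76 to -0.35 on the log2 scale, with a median of -0.58 beside -0.012 over all 22180 genes. Differences are of log2(intensity + 16), from a limma fit of all 9 arrays, given ± SE with n = 3 arrays per group, and adding 16 makes the difference of a dim probe set look smaller. At an unadjusted p under 0.05 limma found 8 of 8 lower in KT than in SD, where 4.38% of all genes were, and the KT arrays lay below all SD arrays for 7 of 8, where 5.54% of all genes did. In SD against saline all 8 means were higher (46.6% of all genes; median 0.41), 5 of 8 at an unadjusted p under 0.05 beside 1.8% of all genes, and without overlap for 4 of 8 beside 3.57%. In KT against saline all 8 means were lower (54.6% of all genes; median -0.16), 3 of 8 at an unadjusted p under 0.05 beside 2.35%, and without overlap for 3 of 8 beside 7.89%. The comparisons share arrays, so these counts are not independent of each other. The 8 genes were chosen with earlier results of these data known, so the counts are not independent evidence either.

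No gene of the array, and none of the 8, passed limma's test at an adjusted p under 0.05 over all genes. The counts were 0 of 22180 in each comparison (0.0%), with 2103 genes (9.48%) at an unadjusted p under 0.05 in KT against SD, 781 (3.52%) in SD against saline and 1013 (4.57%) in KT against saline. limma-trend called 15, 3 and 0 genes in these 3 comparisons. The adjusted p of the 8 lay between 0.172 (Nptx2) and 0.447 (Arc) in KT against SD, at 0.625 or more in SD against saline and at 0.870 or more in KT against saline. Of the 15 genes that limma-trend called in KT against SD, 5 were among the 8 (Homer1, Nptx2, Vgf, Scg2 and Cbln4). In the limma fit as reported but without SD array 3, 214 genes were called in KT against SD, 6 of them among the 8 (Homer1, Nptx2, Inhba, Vgf, Scg2 and Ptgs2). limma's F-test over the 3 groups gave an unadjusted p under 0.05 for all 8, beside 5.8% of all genes, and an adjusted p of 0.236 or more.

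**Figure D1:**
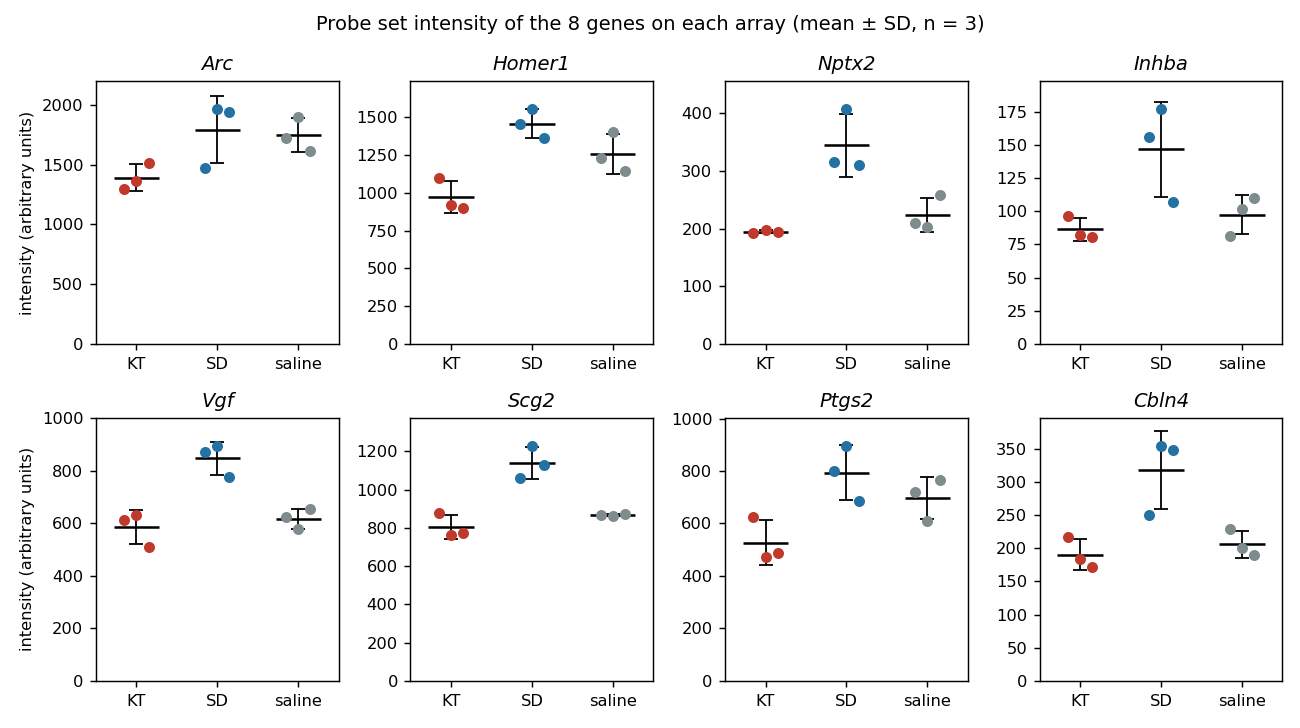
Intensity of each gene's probe set (vertical axes, arbitrary units, from 0) on the 3 KT, 3 SD and 3 saline arrays; points are arrays in replicate order, the long line is the group mean and the bars are ± SD. For every gene but Arc the 3 SD points lie above the 3 KT points, and for Nptx2, Vgf, Scg2 and Cbln4 they also lie above the 3 saline points.

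RefSeq start regions, which run from 250 bases before a transcription start to 50 after it, were matched for 5 of the 8 genes, with 2 starts for Homer1. The 100 bases before the start are shown because the CRE (TGACGTCA), bound by CREB, and the shorter core of that site (TGACG) are the textbook route from activity to transcription. Capitals mark motif matches on either strand, and sequences run 5′ to 3′ on the gene's strand in GRCm38.p6.
Homer1, chr13:93303657-93303756, plus strand: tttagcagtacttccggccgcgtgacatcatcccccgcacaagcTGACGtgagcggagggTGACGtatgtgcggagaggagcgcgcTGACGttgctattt
Scg2, chr1:79440027-79440126, minus strand: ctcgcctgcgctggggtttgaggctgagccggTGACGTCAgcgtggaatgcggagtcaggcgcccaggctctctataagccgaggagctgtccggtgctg
Cbln4, chr2:172043467-172043566, minus strand: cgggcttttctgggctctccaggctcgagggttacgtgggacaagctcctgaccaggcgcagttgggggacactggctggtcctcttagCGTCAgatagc
Inhba, chr13:16011751-16011850, plus strand: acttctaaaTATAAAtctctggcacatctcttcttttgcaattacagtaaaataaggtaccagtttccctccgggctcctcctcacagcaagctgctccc
Ptgs2, chr1:150099931-150100030, plus strand: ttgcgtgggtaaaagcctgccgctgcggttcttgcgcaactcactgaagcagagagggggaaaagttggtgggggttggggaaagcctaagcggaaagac

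The start region of Scg2 held the only full CRE, from 68 to 61 bases before the start, and that match contains the core site on each strand. A full CRE was present in 1.79% of the 32851 start regions of all genes. The core site was present in 4 of the 6 regions of these genes and in 20.8% of all regions. Homer1 had 3 copies of it in the first start region and 0 in the second, and Cbln4 had 1. Ptgs2 had 1 at 13 bases after the start that overlaps an E-box (CACGTG, present in 7.15% of all regions). Inhba had a TATA box match (TATAAA, present in 13.6% of all regions) from 91 to 86 bases before the start and no core site. Its region, 16011601 to 16011900, lies inside the gene's span, which begins at 16004256. Bases around the beginning of that span were not searched. The AP-1 site (TGANTCA), the EGR site (GCGNGGGCG) and the CArG box bound by SRF had 0 matches in the 6 regions, against 7.81%, 5.55% and 1.63% of all regions. A match or its absence describes these letters in this window only.

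**Figure D2:**
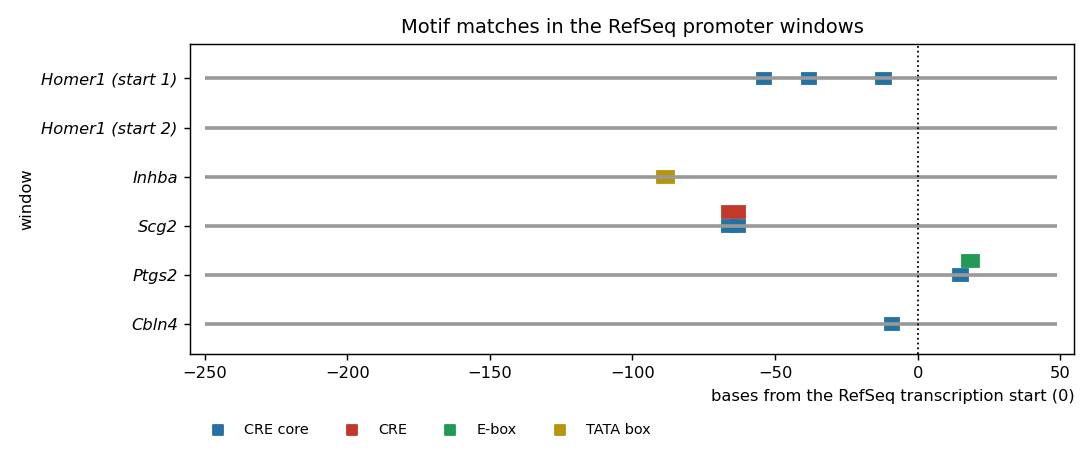
Positions of motif matches (coloured boxes) in the 6 RefSeq start regions of Homer1 (2 starts), Inhba, Scg2, Ptgs2 and Cbln4; the horizontal axis is bases from the transcription start, which is at 0. Scg2 has the only full CRE, drawn above the 2 core sites it contains, and Homer1 has 3 core sites within 60 bases of its first start.

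Arc and Homer1 act in the postsynaptic spine, and both had their lowest mean in KT cortex, as all 8 genes did. Arc (probe set 17317983; chromosome 15, 74669081 to 74672570 in GRCm38.p6) promotes the removal of AMPA-type glutamate receptors from the synapse. It read 1294, 1359 and 1516 on the KT arrays, 1473, 1961 and 1941 on the SD arrays, and 1722, 1896 and 1614 on the saline arrays. All 3 KT arrays lay below all 3 saline arrays, whereas SD array 1 lay below KT array 3 and the other SD arrays lay above every saline array. The difference was -0.32 ± 0.12 in KT against saline and -0.35 ± 0.12 in KT against SD. In SD against saline it was 0.030 ± 0.12 (95% interval -0.23 to 0.29), which became -0.041 without SD array 2 and 0.16 without SD array 1. Among the 8 genes Arc had the smallest difference between SD and saline.

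Homer1 (probe set 17289137; chromosome 13, 93303757 to 93405129) encodes a scaffold whose long forms tie metabotropic glutamate receptors to the postsynaptic density, while a short form induced by activity loosens that link. The single probe set does not tell these forms apart. Its intensity was 1095, 919 and 900 in KT, 1453, 1550 and 1363 in SD, and 1232, 1400 and 1140 in saline. Every KT array was below every other array, and the SD and saline ranges overlapped through saline array 2. The difference was -0.58 ± 0.11 in KT against SD (limma unadjusted p = 0.00012, adjusted p = 0.241), -0.37 ± 0.11 in KT against saline and 0.21 ± 0.11 in SD against saline (95% interval -0.022 to 0.45).

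Of 11 measured scaffold partners (13 listed), 0 had an unadjusted p under 0.05 in any of the 3 comparisons, and the median of these binding partners of Arc and Homer1 was -0.057 in KT against SD. Of all genes 9.48% had such a p in KT against SD, 3.52% in SD against saline and 4.57% in KT against saline. A count of 0 among 11 does not set this list apart from all genes. The scaffold gene Shank2 had the smallest p, at -0.21 ± 0.11 in KT against SD. The other Homer genes, Homer2 and Homer3, were at -0.081 ± 0.13 and 0.18 ± 0.11 in the same comparison, and Grm5, the metabotropic receptor bound by Homer, at -0.12 ± 0.10.

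Nptx2 (probe set 17444498; chromosome 5, 144545887 to 144557478) encodes a secreted pentraxin that clusters AMPA receptors, and among the 8 it had the largest differences of SD from both other groups. It read 193, 197 and 194 in KT, 316, 407 and 310 in SD, and 209, 204 and 258 in saline. The 3 groups did not overlap at all, in the order KT, saline, SD. The mean of 195 ± 2.32 in KT was 0.566 of the SD mean of 344 ± 54.2 (SD, n = 3 each). The difference was -0.76 ± 0.12 in KT against SD, with the smallest unadjusted p of all genes (limma unadjusted p = 1.65e-05, adjusted p = 0.172). It was 0.59 ± 0.12 in SD against saline (adjusted p = 0.625) and -0.18 ± 0.12 in KT against saline (95% interval -0.43 to 0.075). Without SD array 2, its highest array, the difference from saline was 0.46 and that of KT from SD was -0.64.

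Among the partners of Nptx2, its paralogue Nptx1 averaged 781 ± 83.8 in KT, 973 ± 55.2 in SD and 745 ± 26.04 in saline. It differed by 0.38 ± 0.10 in SD against saline and by -0.31 ± 0.10 in KT against SD, and stood at 0.062 ± 0.10 in KT against saline. The AMPA receptor subunit genes Gria1, Gria3 and Gria4 were at -0.069 ± 0.092, 0.032 ± 0.094 and -0.012 ± 0.10 in KT against SD. Of the 5 measured genes of this list (6 listed), 1 had an unadjusted p under 0.05 in each of KT against SD and SD against saline, and it was Nptx1 both times. Of all genes 4.38% were lower in KT than in SD at such a p, and 1.8% were higher in SD than in saline.

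Inhba (probe set 17285438; chromosome 13, 16004256 to 16031609) encodes the subunit of activin A, a ligand of the TGF-beta family that is induced in neurons by NMDA receptor activity. Its intensity lay near the array medians. It read 96.2, 81.8 and 80.9 in KT, 156, 177 and 107 in SD, and 81.2, 101 and 110 in saline. KT lay below SD throughout, but SD array 3 fell within the saline range and KT overlapped saline. The difference was -0.65 ± 0.15 in KT against SD, 0.50 ± 0.15 in SD against saline and -0.14 ± 0.15 in KT against saline (95% interval -0.47 to 0.18). Its SE was the largest of the 8, and the SD arrays varied by 24.6% of their mean.

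The activin pathway around it had 16 measured genes, of which 3 were lower (4.38% of all genes) and 1 higher (5.1% of all genes) in KT than in SD at an unadjusted p under 0.05, with a median of -0.047. Smad7, which encodes a feedback inhibitor of this signalling, was at -0.38 ± 0.13, and the receptor gene Acvr1c at -0.37 ± 0.13. Fstl4, a gene of the follistatin-like family, was at -0.44 ± 0.12 in KT against SD and 0.34 ± 0.12 in SD against saline. Fstl3, whose product binds activin, went the other way at 0.25 ± 0.10 in KT against SD. In KT against saline 0 of the 16 had an unadjusted p under 0.05 (4.57% of all genes).

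Cbln4 (probe set 17395009; chromosome 2, 172036336 to 172043466), a secreted cerebellin that binds presynaptic neurexins, read 216, 183 and 172 in KT, 250, 354 and 348 in SD, and 229, 200 and 190 in saline. All SD arrays were above all others, SD array 1 the least so, and KT and saline overlapped. The difference was -0.68 ± 0.13 in KT against SD (limma unadjusted p = 0.00017, adjusted p = 0.242), 0.57 ± 0.13 in SD against saline and -0.11 ± 0.13 in KT against saline (95% interval -0.40 to 0.18). Without SD array 1 the difference of SD from saline was 0.73.

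Of 8 measured genes in the cerebellin list (10 listed), 2 were lower in KT than in SD at an unadjusted p under 0.05 (4.38% of all genes) and 0 were higher (5.1% of all genes). These were Cbln2, another synaptic cerebellin, at -0.48 ± 0.11, and Grid1, a delta-type glutamate receptor that cerebellins join to neurexins, at -0.25 ± 0.10. Cbln2 averaged 463 ± 75.8 in KT, 646 ± 44.7 in SD and 581 ± 29.9 in saline, and its difference was -0.33 ± 0.11 in KT against saline and 0.15 ± 0.11 in SD against saline. Nrxn2, a neurexin gene, was at -0.17 ± 0.11 in KT against SD.

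Vgf and Scg2 encode precursors stored in dense-core vesicles, and these 2 genes had the most similar course over the arrays of all 28 pairs among the 8 (mean absolute difference 0.088 on the centred log2 scale over 9 arrays). Vgf (probe set 17443519; chromosome 5, 137025301 to 137033351), a source of neuropeptides that is induced by BDNF, read 614, 630 and 511 in KT, 871, 895 and 777 in SD, and 623, 578 and 654 in saline. SD stood above both other groups without overlap, and KT and saline overlapped. The difference was -0.53 ± 0.10 in KT against SD (adjusted p = 0.242), 0.44 ± 0.10 in SD against saline and -0.082 ± 0.10 in KT against saline (95% interval -0.31 to 0.14). Without KT array 3 the last of these was 0.0099.

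Scg2 (probe set 17224730; chromosome 1, 79434366 to 79440026), a granin and the precursor of secretoneurin, read 876, 764 and 772 in KT, 1060, 1229 and 1132 in SD, and 869, 864 and 873 in saline. The saline arrays were almost equal (869 ± 4.87, SD, n = 3), SD lay above them without overlap, and 2 KT arrays lay below them while KT array 1 lay above. The difference was -0.50 ± 0.094 in KT against SD (limma unadjusted p = 0.000131, adjusted p = 0.242), 0.38 ± 0.094 in SD against saline and -0.11 ± 0.094 in KT against saline (95% interval -0.32 to 0.090).

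Granins and their processing enzymes had 8 measured genes (9 listed), with a median of -0.11 in KT against SD, 0.025 in SD against saline and -0.068 in KT against saline. Pcsk1, the convertase that cuts such precursors, was the 1 gene of the list with an unadjusted p under 0.05. With that p it was lower in KT than in SD (4.38% of all genes) and than in saline (2.35% of all genes). It averaged 536 ± 64.2 in KT, 718 ± 55.5 in SD and 699 ± 28.1 in saline, a difference of -0.42 ± 0.10 in KT against SD, -0.38 ± 0.10 in KT against saline and 0.036 ± 0.10 in SD against saline. The granin genes Chgb and Chga were at -0.20 ± 0.095 and -0.19 ± 0.11 in KT against SD, and at 0.12 ± 0.095 and 0.14 ± 0.11 in SD against saline. Pcsk1n, whose product inhibits the convertase, was at 0.22 ± 0.10 in KT against saline.

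Ptgs2 (probe set 17218060; chromosome 1, 150100031 to 150108234) encodes the inducible cyclooxygenase, which in cortex is made by excitatory neurons and starts prostanoid synthesis. It read 624, 471 and 487 in KT, 801, 896 and 684 in SD, and 720, 608 and 764 in saline. KT lay below SD throughout, KT array 1 lay just above saline array 2, and SD overlapped saline. The difference was -0.58 ± 0.13 in KT against SD, -0.40 ± 0.13 in KT against saline and 0.18 ± 0.13 in SD against saline (95% interval -0.10 to 0.47). The rest of the prostanoid pathway showed no gene with an unadjusted p under 0.05 in any comparison (0 of 12 measured, 14 listed). Of all genes 9.48% had such a p in KT against SD, 3.52% in SD against saline and 4.57% in KT against saline. A count of 0 among 12 does not set this list apart from all genes. The phospholipase gene Pla2g4a, which supplies arachidonic acid, was at -0.075 ± 0.091 in KT against SD, and the prostaglandin E synthase genes Ptges2 and Ptges3 at -0.019 ± 0.10 and -0.20 ± 0.16. Ptger2, a receptor of prostaglandin E, was at 0.14 ± 0.099.

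**Figure D3:**
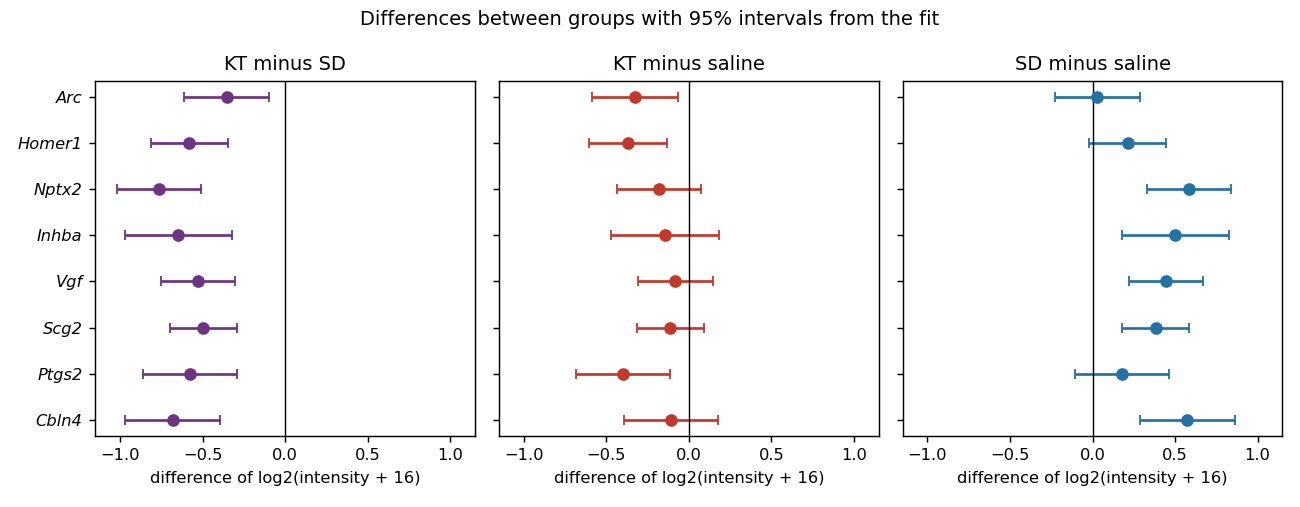
Difference between group means for each of the 8 genes (horizontal axes, log2(intensity + 16)) with its 95% interval from the limma fit, n = 3 arrays per group. In KT minus SD all 8 intervals lie below 0; in KT minus saline those of Arc, Homer1 and Ptgs2 do; in SD minus saline those of Nptx2, Inhba, Vgf, Scg2 and Cbln4 lie above 0.

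Side by side, Arc, Homer1 and Ptgs2 had larger differences in KT against saline (-0.32 to -0.40) than in SD against saline (0.030 to 0.21). Nptx2, Inhba, Vgf, Scg2 and Cbln4 had larger ones in SD against saline (0.38 to 0.59) than in KT against saline (-0.082 to -0.18). Whether the first 3 genes differ from the other 5 in this respect was not tested, and the saline arrays enter both comparisons.

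**Figure D4:**
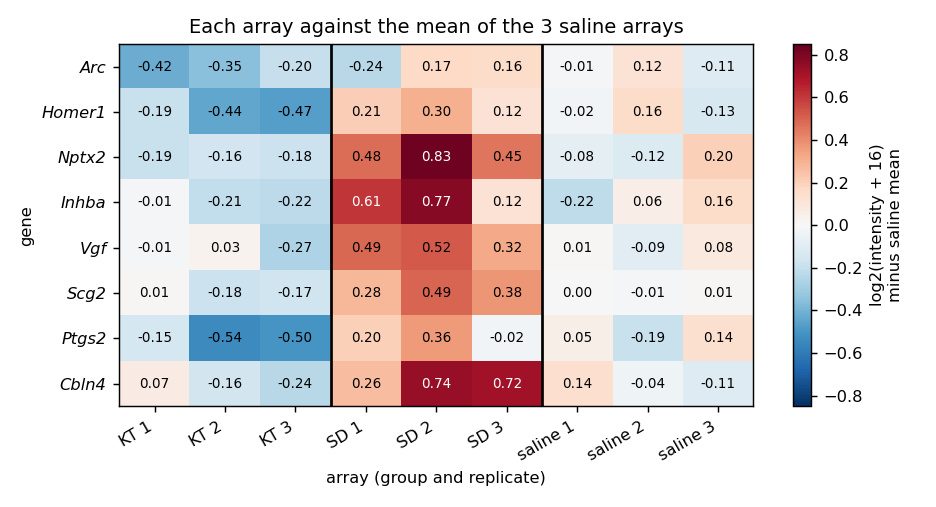
log2(intensity + 16) of each gene on each array minus the mean of the 3 saline arrays (colour and printed value); columns are the KT, SD and saline arrays, rows the 8 genes. SD array 2 holds the highest SD value for all 8 genes, and KT array 3 is below the saline mean for all 8.

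SD array 2 was the highest SD array for 8 of 8 genes, beside 41.9% of all genes, with a median of 0.51 above the saline mean against 0.27 and 0.24 for SD arrays 1 and 3. Without SD array 2 all 8 genes still had a lower mean in KT than in SD, between -0.28 and -0.64, and each had an unadjusted p under 0.05. In KT, array 3 was below the saline mean for 8 of 8 genes, array 2 for 7 and array 1 for 6. Over all genes 54.6% had a lower group mean in KT than in saline, and the share for each array was not computed. The median of the 8 against the saline mean was -0.079, -0.19 and -0.23 on KT arrays 1 to 3.

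Other effector genes known to follow activity, 18 measured of 20 listed, had a lower mean in KT than in SD in 18 of 18 (53.0% of all genes), with a median of -0.21. Of these, 7 had an unadjusted p under 0.05 (4.38% of all genes). Sorcs3, a sorting receptor, was at -0.50 ± 0.10, the neurotrophin gene Bdnf at -0.52 ± 0.12, the GTPase gene Rnd3 at -0.46 ± 0.12, the kinase gene Plk3 at -0.43 ± 0.11, Trib1 at -0.36 ± 0.12, Tiparp at -0.34 ± 0.13 and Crh, the corticotropin-releasing hormone gene, at -0.24 ± 0.11. In SD against saline 14 of 18 had a higher mean (46.6% of all genes; median 0.084), and Sorcs3, at 0.42 ± 0.10, was the 1 gene with an unadjusted p under 0.05 (1.8% of all genes). In KT against saline 18 of 18 had a lower mean (54.6% of all genes; median -0.18), 4 of them at an unadjusted p under 0.05 (2.35% of all genes), namely Tiparp at -0.50 ± 0.13, the GTPase gene Gem at -0.44 ± 0.17, Bdnf at -0.27 ± 0.12 and Trib1 at -0.26 ± 0.12.

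The list of activity-induced transcription factors had 20 measured genes of 21 listed. In KT against SD 18 of 20 had a lower mean (53.0% of all genes; median -0.19), 7 at an unadjusted p under 0.05 (4.38% of all genes). These were Egr2 at -0.41 ± 0.16, Egr3 at -0.39 ± 0.13, Nr4a1 at -0.36 ± 0.11, Fosl2 at -0.36 ± 0.10, the CREB-family gene Crem at -0.31 ± 0.095, Klf4 at -0.29 ± 0.092 and Egr1 at -0.24 ± 0.092. Fos and Npas4 were at -0.038 ± 0.10 and 0.071 ± 0.11 there. In SD against saline, where all 8 effectors had a higher mean, 9 of these 20 had a higher mean (46.6% of all genes; median -0.033). At an unadjusted p under 0.05 Egr3 had a higher mean, by 0.30 ± 0.13, and 3 had a lower one (1.72% of all genes), namely Fos at -0.39 ± 0.10, Npas4 at -0.36 ± 0.11 and Junb at -0.27 ± 0.095. In KT against saline 19 of 20 had a lower mean (54.6% of all genes; median -0.20), 9 at an unadjusted p under 0.05 (2.35% of all genes). The 9 were Egr2 (-0.57 ± 0.16), Junb (-0.45 ± 0.095), Nr4a2 (-0.44 ± 0.15), Fos (-0.42 ± 0.10), Nr4a1 (-0.35 ± 0.11), Klf4 (-0.33 ± 0.092), Fosl2 (-0.30 ± 0.10), Npas4 (-0.29 ± 0.11) and Fosb (-0.28 ± 0.12).

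**Figure D5:**
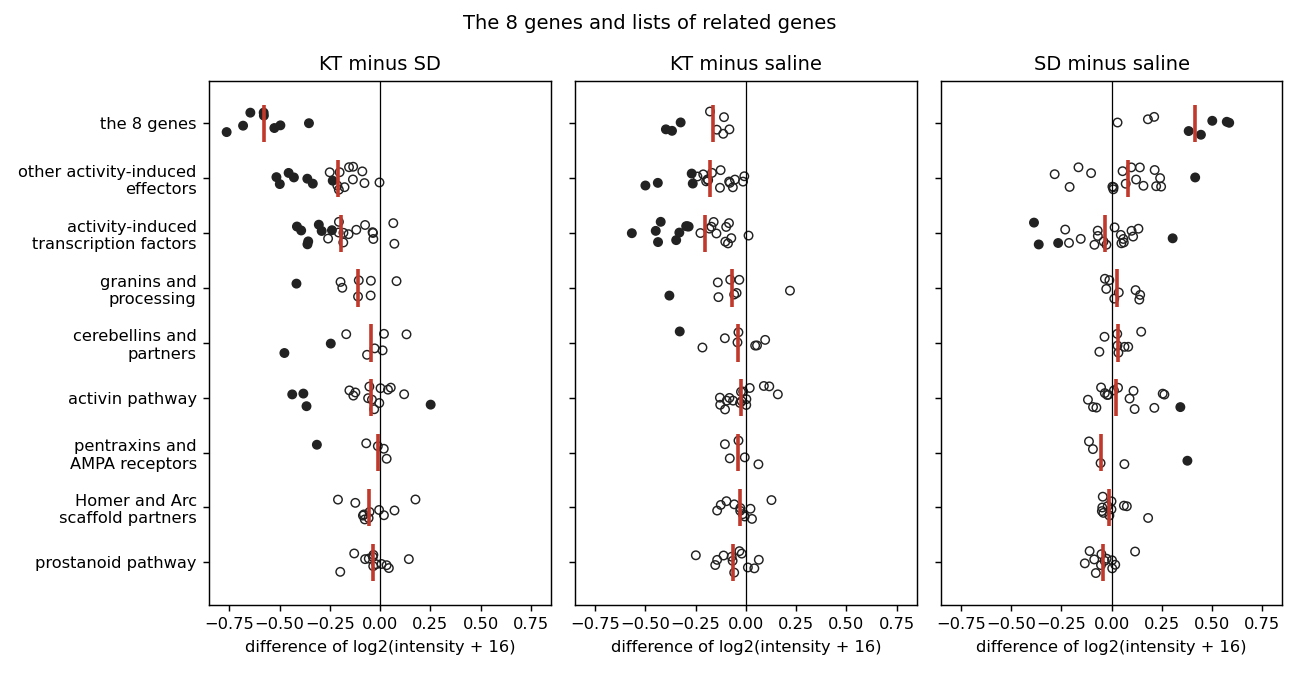
Differences of log2(intensity + 16) for the 8 genes and 8 lists of related genes in the 3 comparisons; each point is a gene, filled where its unadjusted limma p is under 0.05, the red line is the list's median, and vertical scatter within a row is only for display. The 8 genes have medians of -0.58 in KT minus SD, -0.16 in KT minus saline and 0.41 in SD minus saline, and the medians of the 6 lower rows lie between -0.11 and 0.032.

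The genes closest to each of the 8 over the 9 arrays were sought among the 11090 brighter genes, by the mean absolute difference of log2 values centred on each gene's own mean. Cdkn1a, a cell cycle inhibitor gene, was closest to both Nptx2 (0.099) and Inhba (0.078), and averaged 318 in KT, 547 in SD and 358 in saline. Rasd1, a Ras-related GTPase gene, was also among the closest to Nptx2 (0.10) and Inhba (0.12), as were Sgsm1 for Nptx2 (0.12) and Fstl4 for Inhba (0.11). Sorcs3 was closest to Vgf (0.051), followed by Maml3 (0.061) and Synj2 (0.069), and Synj2 was closest to Scg2 (0.049), followed by Rbm28 (0.052) and Otub2 (0.054). Homer1 was closest to Adamts1 (0.050), Socs2 (0.056) and Lrrk2 (0.066), and Ptgs2 to Slc9a5 (0.081), Apold1 (0.087) and again Socs2 (0.090). Arc was closest to Trir (0.060), the orphan nuclear receptor gene Nr4a1 (0.067) and Trib1 (0.073), and Cbln4 to Snora30 (0.095), Cmc2 (0.10) and Galnt9 (0.11). For comparison, the median gene searched differed from these 8 by 0.18 to 0.30.

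Across the arrays the median intensity was 97.7 to 106.2. Markers of excitatory neurons, 5 measured of 6 listed, summed to 5696 to 5969 in KT, 5671 to 5966 in SD and 5549 to 5794 in saline, and 0 of the 5 had an unadjusted p under 0.05 in any comparison. Endothelial markers, all 6 measured, summed to 1428 to 1736 in KT, 1731 to 1898 in SD and 1569 to 1731 in saline, and 5 of 6 (Cldn5, Pecam1, Flt1, Vwf and Ly6c1) had a lower mean in KT than in SD at an unadjusted p under 0.05 (4.38% of all genes), with a median of -0.29 over the 6. In SD against saline all 6 had a higher mean (46.6% of all genes; median 0.16). Of them 1, Vwf at 0.41 ± 0.12, had an unadjusted p under 0.05 (1.8% of all genes). Astrocyte markers, all 6 measured, had a lower mean in KT than in saline in 6 of 6 (54.6% of all genes; median -0.10). Markers of astrocytes, microglia, meningeal fibroblasts and striatal neurons had 0 genes at an unadjusted p under 0.05 in any comparison. Depending on the comparison, 3.52% to 9.48% of all genes had such a p. Interneuron markers, all 7 measured, summed to 5170 to 5276 in KT, 4807 to 5766 in SD and 4936 to 5234 in saline. The brightest, Sst, weighs most in this sum and averaged 2578 in KT, 2334 in SD and 2199 in saline. In KT against saline 5 of the 7 had a lower mean (54.6% of all genes) and 2 a higher one, with a median of -0.11. Among the 7, Vip was at -0.41 ± 0.11 in KT against SD and -0.28 ± 0.11 in KT against saline, and Sst at 0.23 ± 0.10 in KT against saline, each at an unadjusted p under 0.05, as were 0 of the 7 in SD against saline. At such a p 4.38% of all genes were lower in KT than in SD. In KT against saline 2.35% were lower and 2.21% higher. Oligodendrocyte markers (5 of 6 measured) summed to 2499 to 4413 in KT, 2543 to 3230 in SD and 2856 to 3515 in saline. Choroid plexus markers (7 of 7) summed to 793 to 1119 in KT, 639 to 1121 in SD and 735 to 9631 in saline, with 2295 on saline array 1 and 9631 on saline array 2, and 2 of 7 (Ttr and Clic6) were lower in SD than in saline at an unadjusted p under 0.05 (1.72% of all genes). No defining marker was at 0, but among the endothelial and choroid plexus markers Ly6c1, Clic6 and Cldn2 were dim, below the median gene on every array. The part of these cell types in the differences of the 8 genes was not tested. In bulk tissue, fewer cells of a type and less RNA per cell cannot be told apart. Without saline array 2, 6 of the 8 were higher in SD than in saline at an unadjusted p under 0.05. In KT against saline 2 of the 8 were then lower. Of all 22180 genes, 571 in SD against saline and 454 in KT against saline had such a p, in either direction.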

How the data were processed

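Each of the 9 arrays measured total RNA of 1 sample. Expression Console 1.1.1 and PLIER 2.0 are named by the submitters' processing notes. The deposited table holds linear intensity values for 41345 probe sets; how background was removed and arrays were normalized is not given in the sources used here. Of the probe sets, 23521 had 1 gene symbol (23328 matched to RefSeq), 1814 had several and 16010 had none in the platform table. Of several probe sets per gene the brightest was used, giving 22180 genes.

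The authors' intensities were put on a log2 scale as log2(intensity + 16) and fitted with limma 3.58.1 in R 4.3.3, all 9 arrays together (6 residual degrees of freedom, no block), with Benjamini-Hochberg adjustment over all genes at 0.05. The fit was tested on simulated data in which each gene varied independently. Such data do not show how the fit behaves where many genes deviate together on an array. No pair of arrays was identical (0 pairs). Files hold no detection call, and the 3 arrays per group limit the precision (median SE 0.11). The labels name no batch. p-values measure the spread between these samples only.

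The 8 genes and the related lists were chosen with earlier results of these data known, so their counts are not independent evidence. Named genes are the 8, list members at unadjusted p under 0.05 or otherwise up to 4 with the smallest p, and the 3 genes closest to each of the 8; the endothelial, interneuron and choroid plexus markers were named after their values were seen. List members without a probe set of 1 gene, such as Nptxr and Ptgs1, were not analysed here. Start regions come from RefSeq tables of GRCm38.p6. Alternatives covered offset, normalization, dim genes, probe sets, variance model, samples in the fit, a replicate block and each array left out.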

Additional observations from a re-analysis of the deposited data

How the results depend on the processing

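All 8 genes kept a lower mean in KT than in SD, each at an unadjusted p under 0.05 in limma, under all 19 alternatives. As reported, 971 of all genes (4.38%) were lower in KT than in SD at such a p. In either direction the count over all genes was 2103 as reported, 1922 with an offset of 1 and 2222 with an offset of 64. The number of genes called at an adjusted p under 0.05, 0 as reported, depended on the setting, and the cause was not tested. In KT against SD it was 14 with an offset of 64, 5 with dim genes left out, 15 with limma-trend, 42 with array weights, and 0 to 214 with 1 array left out (214 without SD array 3, 1 without SD array 2). In SD against saline it was 1 after median centring, 3 with limma-trend, and 0 to 4 with 1 array left out (4 without SD array 2). In KT against saline it was 1439 with array weights, where KT array 2 took a weight of 7.92, and 0 without any 1 array. Over the 3 groups the F-test called 4 with an offset of 64, 8 with limma-trend, 950 with array weights, and 0 to 8 with 1 array left out. In KT against SD 5 of the 8 genes passed with an offset of 64 and 1 (Nptx2) with dim genes left out. With array weights 4 passed there. In KT against saline 3 (Arc, Homer1 and Ptgs2) passed with array weights, and 6 of the 8 then had an unadjusted p under 0.05. Of all 22180 genes, 6087 had such a p in that setting, in either direction, beside 1013 as reported. With 1 array left out, 8 of the 8 had an unadjusted p under 0.05 throughout in KT against SD, beside 9.48% of all genes as reported. The numbers among the 8 were 5 to 6 in SD against saline and 2 to 3 in KT against saline. Over all genes, in either direction, they were 571 to 2079 in SD against saline and 454 to 1871 in KT against saline.

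Signs turned for Vgf in KT against saline (0.0099 without KT array 3, within -0.14 to 0.0099 with 1 array left out) and for Arc in SD against saline (-0.027 with array weights, -0.041 without SD array 2, -0.033 without SD array 3 and -0.024 without saline array 3, within -0.041 to 0.16 with 1 array left out). Most same-numbered arrays did not deviate together (correlations of -0.20 to 0.44, 2 of 9 pairs over 0.1), so the replicate numbers were not taken as pairs. The highest was KT array 3 with SD array 3. Arrays of unlike number reached 0.54 (KT array 1 with SD array 2) and -0.51 (KT array 3 with SD array 2). With the replicate block 0 genes were called in each comparison and the smallest adjusted p among the 8 was 0.133.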

Other observations

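The spread between arrays of a group differed widely among the 8 genes. The coefficient of variation was 0.561% for Scg2 in saline and 1.19% for Nptx2 in KT, against 24.6% for Inhba, 18.4% for Cbln4, 15.7% for Nptx2 and 15.4% for Arc in SD. For Arc the low SD array was array 1, for Inhba it was array 3 and for Cbln4 it was array 1, so no single array was the lowest for all 8. SD array 3 was the lowest SD array for 5 genes and SD array 1 for 3.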
